A study of Mus musculus with 8 samples.

Results

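The genes described here are the chaperones and heat shock proteins of splenic regulatory T cells (Tregs). They were taken by name from the deposited expression table: Tcp1 and every symbol that begins with Cct2 to Cct8, Hsp and a digit or a letter from a to h, Dnaja, Dnajb, Dnajc, Pfdn or Bag1 to Bag6. This gave 96 of the 21524 genes in the table, of which 10 were chaperonin genes, 14 HSP70 genes, 3 HSP90 genes, 45 J-protein genes, 5 prefoldin genes, 6 BAG genes, 9 small heat shock protein, HSP60 or HSP10 genes and 4 others. The measurement was RNA sequencing of Tregs sorted from mouse spleen, with 4 libraries labelled IL-2 (libraries 41 to 44) and 4 labelled control (libraries 45 to 48). The series is about an IL-2 mutein given with CTLA-4 Ig after mismatched heart or kidney grafts. The labels do not say which form of IL-2 these libraries stand for, what the control animals received, whether CTLA-4 Ig or a graft was present in either group, or the strain, age or number of animals. Whether each library is a separate animal is also not given, so p-values here describe spread among the 8 libraries only.

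Chaperones bind proteins that are not yet, or no longer, folded. In the cytosol, HSP70 binds short greasy stretches of a chain under the control of J-proteins, which deliver clients and trigger ATP hydrolysis, and of BAG and HSP110 proteins, which release the nucleotide. HSP90 takes later steps for kinases and receptors. The chaperonin TRiC is a double ring of subunits that encloses actin, tubulin and other clients handed over by prefoldin, and HSP60 with HSP10 does the same in mitochondria. Many of these genes are kept on in growing cells, while others, such as Hspa1a and Hspb1, are switched on by heat shock factor under stress.

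Values below are normalised reads recovered from the deposited variance-stabilised values, and differences are IL-2 minus control on that deposited log2 scale, which understates folds of genes with few reads. Estimated depth was 4953547 to 6399418 reads in the IL-2 libraries and 4970820 to 6147506 in the control libraries. Of 6 Treg markers, Il2ra was higher with IL-2, Cd4 was lower and the others did not pass. The calls made up 33.3% of these markers, near the 31.4% of all tested genes. Foxp3 averaged 1883 ± 262 normalised reads with IL-2 against 1537 ± 290 in controls (SD, n = 4 each, as for every ± on reads below). Neutrophil, erythroid and CD8 T cell lists summed to at most 90.2 reads in an IL-2 library and 103 in a control library. Monocyte, macrophage and dendritic cell markers summed to 836 to 1062 reads with IL-2 and 1637 to 1892 in controls, and most of those reads were Ctss. B cell markers summed to 131 to 241 reads with IL-2 and 518 to 619 in controls, of which Cd74 averaged 88.5 with IL-2 and 396 in controls. NK cell markers summed to 0 to 38.3 reads with IL-2 and 66.1 to 168 in controls. Plasma cell markers summed to 495 to 597 with IL-2 and 272 to 372 in controls, nearly all Xbp1, which T cells also express. Lyz2 and Tyrobp were at 0 in all IL-2 libraries and Ms4a1 too, and in controls these 3 averaged 10.1, 2.45 and 0.681 reads. Some markers of the same lists were not lower with IL-2, such as Cd79b, Cd68 and Fcer1g. These averaged 60.1, 17.2 and 6.07 reads with IL-2 and 42.0, 13.4 and 3.21 in controls. All 9 tested genes of a proliferation list were higher with IL-2, where 16.8% of all tested genes were higher. The list summed to 14607 to 24657 reads with IL-2 against 7637 to 9602 in controls, the highest in IL-2 library 44. The part of these lists in the results below was not tested. In bulk RNA, more cells with a transcript and more transcript per cell cannot be told apart.

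Most TRiC subunit genes and all HSP90 genes were higher in IL-2 Tregs, as was Hspa8, while most J-protein genes did not pass the test. Of 46 members tested with limma, 17 were higher and 1 was lower at an adjusted p of 0.05, and 28 did not pass. Among all 5261 genes tested, 31.4% passed in either direction, 16.8% as higher and 14.6% as lower. The median difference was 0.05 over the tested members and -0.01 over all tested genes. The IL-2 libraries lay wholly above the controls for 13 tested members and wholly below for 2, where 31.5% of all tested genes did not overlap, 16.7% above and 14.7% below. The classes differed in their counts: 7 of 8 tested chaperonin genes, 3 of 3 HSP90 genes, 2 of 7 HSP70 genes and 1 of 20 J-protein genes were higher. Their median differences were 0.32, 0.40, 0.08 and -0.04. The filter on low values kept 46 of the 96 members. A second limma fit, on log2(normalised reads + 5), took in 28 more, 74 in all. It called 18 higher and 2 lower, where 19.9% of its 10777 genes passed, 10.9% as higher and 9.07% as lower. In the second fit the median differences of chaperonin, HSP90, HSP70 and J-protein genes were 0.52, 0.49, 0.08 and -0.06. The order of chaperonin and HSP90 genes thus depended on the scale. The remaining 22 members had too few reads for either fit, and 8 of them were at 0 in every library.

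**Figure D1:**
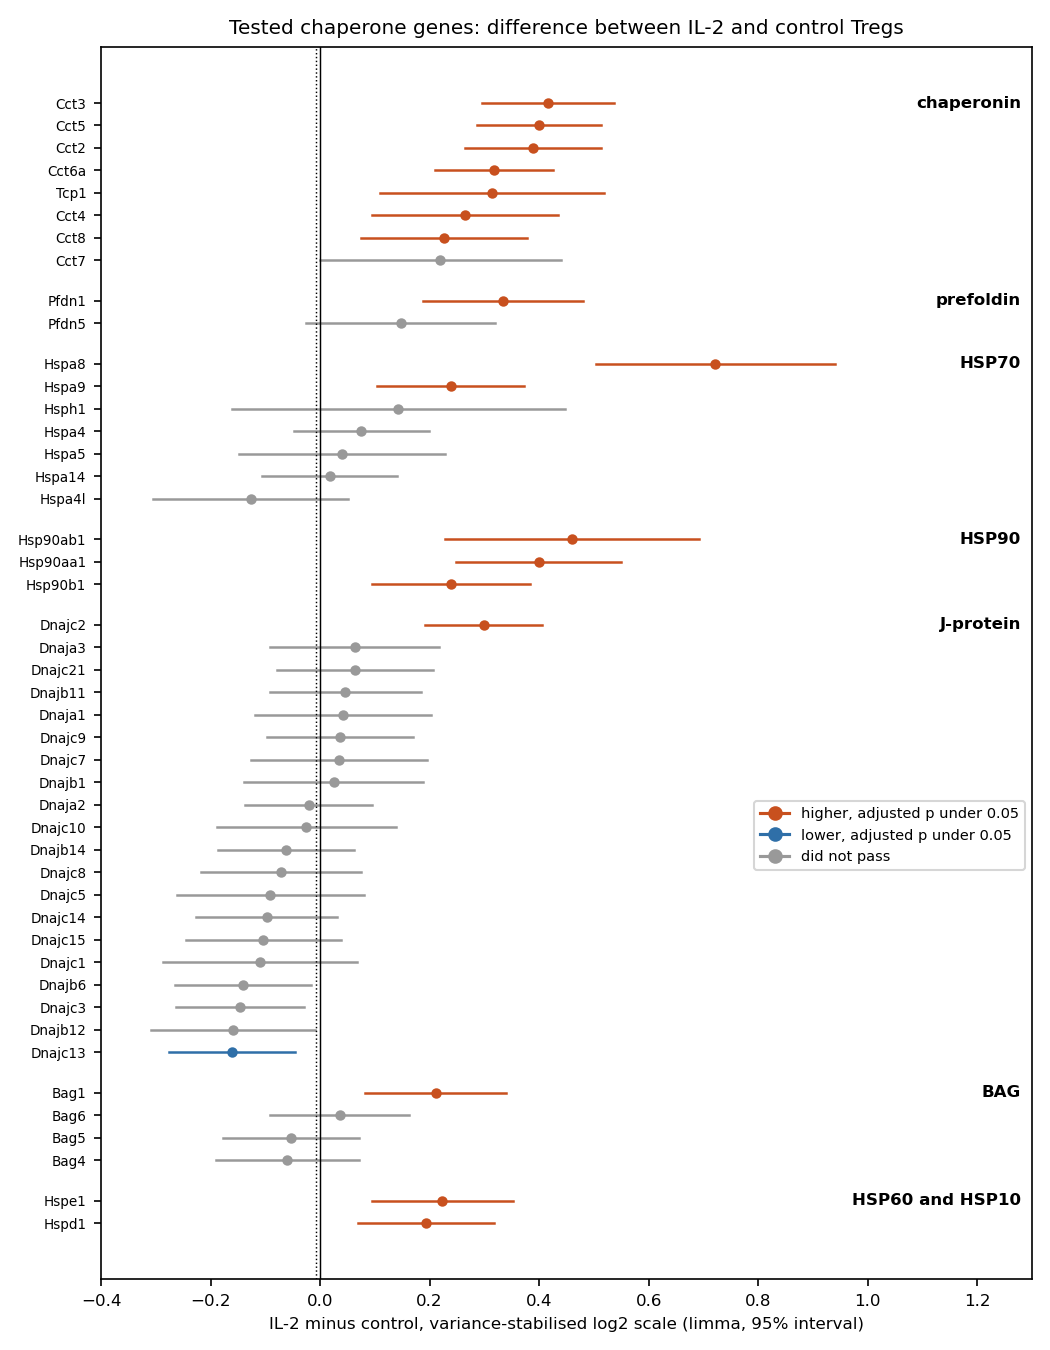
Difference of each tested member, IL-2 minus control, on the variance-stabilised log2 scale; points are limma estimates, bars are 95% intervals and the dotted line is the median of all tested genes. The 8 chaperonin genes run from 0.22 to 0.42, and the J-protein genes from -0.16 to 0.30.

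The chaperonin TRiC has 8 kinds of subunit, encoded by Tcp1, Cct2, Cct3, Cct4, Cct5, Cct6a, Cct7 and Cct8, and all 8 had higher mean reads with IL-2, 7 of them past the threshold. Cct5 had 2127, 2389, 2357 and 2292 normalised reads in IL-2 libraries 41 to 44, against 1659, 1491, 1602 and 1519 in control libraries 45 to 48. Every IL-2 value lay above every control value, by 1.46-fold on average (log2 difference 0.40 ± 0.05 SE, limma adjusted p = 1.20e-04). Cct3 had 989, 1150, 1111 and 1051 reads with IL-2, against 660, 723, 670 and 569 in controls. Its 1.64-fold difference was the largest ratio of means among the 8 subunits (log2 difference 0.42 ± 0.06 SE, limma adjusted p = 1.47e-04).

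Cct2 had 1973, 2134, 1879 and 1890 reads with IL-2, against 1235, 1506, 1325 and 1309 in controls, without overlap (1.47-fold, limma adjusted p = 3.00e-04). Cct6a had 795, 863, 949 and 852 reads with IL-2, against 573, 564, 570 and 605 in controls, again without overlap (49.7% higher, limma adjusted p = 4.69e-04). These 4 subunits passed whichever single library was left out, with adjusted p-values of at most 0.00208.

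The other subunits were less even across libraries. Cct4 had 620, 775, 942 and 651 reads with IL-2, against 577, 478, 599 and 442 in controls (1.43-fold, limma adjusted p = 0.0216). Its groups did not overlap, but library 43 was high, and the call was lost without IL-2 library 43, control library 46 or control library 48 (adjusted p = 0.0607, 0.0590 and 0.0648). Tcp1, which gives the complex its other name, had 1222, 1333, 1721 and 1941 reads with IL-2, against 1157, 1232, 1097 and 950 in controls (1.40-fold, adjusted p = 0.0231). Library 41 overlapped the controls, and the call was lost without IL-2 library 43 or 44 or control library 47 or 48 (adjusted p = 0.0691, 0.0538, 0.0510 and 0.0688). Cct8 had 1076, 1261, 967 and 1003 reads with IL-2, against 814, 760, 751 and 996 in controls (29.7% higher, limma adjusted p = 0.0262). Control library 48 lay inside the IL-2 range, and the call was lost without IL-2 library 41 or 42 or control library 45, 46 or 47 (adjusted p = 0.0532 to 0.0746). Cct7 had 968, 1511, 785 and 989 reads with IL-2, against 827, 853, 850 and 706 in controls, and did not pass (1.31-fold, limma adjusted p = 0.121; the 95% interval of the difference ran from -0.00066 to 0.44). Library 42 was far above the other IL-2 libraries and library 43 fell among the controls; without library 43 Cct7 passed (adjusted p = 0.0375).

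**Figure D2:**
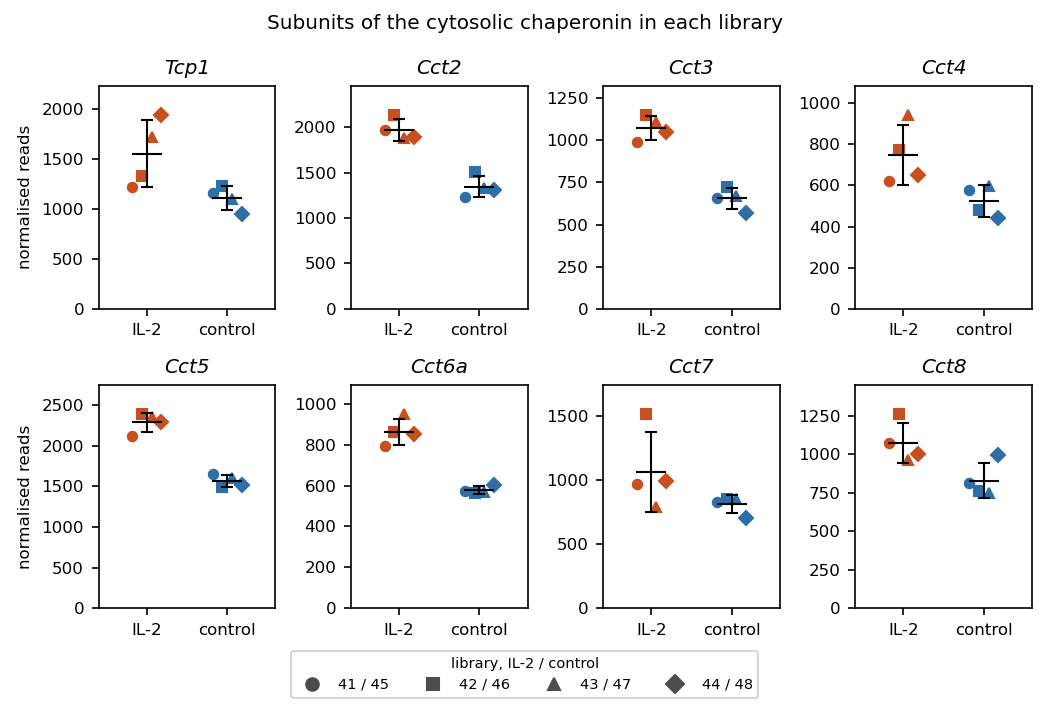
Normalised reads of the 8 TRiC subunit genes in each library, with the group mean and SD (n = 4); marker shapes only tell libraries apart and pair none. The groups are apart for Cct2, Cct3, Cct4, Cct5 and Cct6a and overlap for Tcp1, Cct7 and Cct8.

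Summed over the 10 chaperonin symbols, normalised reads were 9771, 11416, 10721 and 10668 in IL-2 libraries 41 to 44 and 7507, 7615, 7473 and 7097 in control libraries 45 to 48. That is 0.170% to 0.194% of all recovered reads with IL-2 and 0.127% to 0.137% in controls. The testis relatives added almost nothing: Cct6b averaged 2.36 reads with IL-2 and 5.54 in controls, and Cct8l1 0 with IL-2 and 0.454 in controls.

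For Cct3, the subunit gene with the highest fold, a stretch of its promoter is shown because the data concern its transcript level. It was read from the RefSeq promoter table (GRCm38.p6, chr3:88297035-88297115, plus strand), and the capitals mark 2 CCAAT boxes, both in reverse orientation; no annotated exon overlaps it.
Cct3: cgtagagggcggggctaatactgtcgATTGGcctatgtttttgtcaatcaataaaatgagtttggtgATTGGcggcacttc
CCAAT on either strand is common: 41.1% of 27025 genes held it in a window of 300 bases around the start, as did 30 of the 78 members in the table. The letters TTCNNNGAA, bound by STAT factors, stood in the windows of 4 of the 78 members (Cct5, Dnajc7, Dnajc13 and Dnajc27), beside 9.55% of all genes. CACGTG, the E-box letters bound by Myc and related factors, stood in 7 of the 78, beside 8.09%. These are matches of letters on either strand and not binding data. Windows were available for 10 of the 17 members called higher. Hspa8, Hspa9, Hsp90aa1, Hsp90ab1, Cct4, Dnajc2 and Pfdn1 had none, so their promoters were not searched for any of the motifs given here.

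Prefoldin, the jaw-like complex that carries unfolded actin and tubulin to TRiC, had 2 tested genes among those with a Pfdn symbol. Pfdn1 had 349, 348, 294 and 465 reads with IL-2, against 216, 151, 206 and 207 in controls. All IL-2 values exceeded all control values, by 1.87-fold (log2 difference 0.33 ± 0.07 SE, limma adjusted p = 0.00256). Pfdn5 did not pass, with 680 ± 85.5 reads with IL-2 against 564 ± 125 in controls (SD, n = 4 each, limma adjusted p = 0.182). In the fit that took in genes with fewer reads, Pfdn6 passed: it had 172, 219, 157 and 238 reads with IL-2, against 102, 49.3, 113 and 122 in controls, a 2.04-fold difference (limma adjusted p = 0.0178). Pfdn2 and Pfdn4 stood at 59.7 and 51.6 reads with IL-2 and at 46.7 and 62.4 in controls, and neither passed there.

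Among partners of TRiC and prefoldin listed by name, 5 of 13 were tested, of which 1 was higher and 1 lower, where 16.8% of all tested genes were higher and 14.6% lower. The count is too small to be read against those shares. Tbca, a tubulin folding cofactor, had 485 ± 15.0 reads with IL-2 against 340 ± 31.4 in controls (limma adjusted p = 0.00353). Txndc9, a phosducin-like regulator of the chaperonin, had 247 ± 76.7 with IL-2 against 384 ± 66.3 in controls and was lower (limma adjusted p = 0.0359), a call lost in the second fit (adjusted p = 0.0613).

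In mitochondria, HSP60 and its lid HSP10 are encoded by the neighbouring genes Hspd1 and Hspe1, and both rose. Hspe1 had 463, 473, 537 and 392 reads with IL-2, against 348, 367, 318 and 275 in controls (1.43-fold, limma adjusted p = 0.0128). Hspd1 had 852, 1068, 968 and 870 reads with IL-2, against 770, 768, 670 and 768 in controls (1.26-fold, limma adjusted p = 0.0224). Neither gene's groups overlapped. Hspd1 lost its call without IL-2 library 42 or 43 or control library 47 (adjusted p = 0.0624, 0.0566 and 0.0685), while Hspe1 kept it in every such fit. Hspa9, the mitochondrial HSP70 that pulls proteins through the import channel, had 1322, 1526, 1389 and 1161 reads with IL-2, against 1038, 1139, 1001 and 990 in controls (1.29-fold, without overlap, limma adjusted p = 0.0111). Grpel1, its nucleotide exchange factor, had 291 ± 15.0 reads with IL-2 against 222 ± 20.6 in controls (limma adjusted p = 0.0476, and 0.0567 in the second fit), and Trap1, the mitochondrial HSP90, had 649 ± 60.6 with IL-2 against 482 ± 23.4 in controls (limma adjusted p = 0.00760). Dnaja3, a mitochondrial J-protein, did not pass (275 ± 75.1 reads with IL-2 against 241 ± 26.0 in controls, limma adjusted p = 0.540). Of 2 tested mitochondrial protease and unfoldase genes, Lonp1 and Clpx, neither passed.

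Hspd1 and Hspe1 lie on opposite strands and start in a shared region. RefSeq starts of Hspd1, at 55087932 and 55088243 on the minus strand, lie on either side of the Hspe1 start at 55088148. The stretch shown lies before the start of Hspe1 (RefSeq, GRCm38.p6, chr1:55088053-55088082, plus strand) and inside an annotated exon of Hspd1, because it holds the letters of a heat shock element, and the capitals mark inverted GAA and TTC units.
Hspe1: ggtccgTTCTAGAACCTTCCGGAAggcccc
The run contains 2 overlapping matches to the 3-unit element, which is GAA, TTC and GAA with 2 free bases between units, or its reverse. That element was in the windows of 0.662% of all genes and of 4 of the 78 members: Hspd1, Hspe1, Hsph1 and Dnajb6. The stretch shown lies in windows of both Hspd1 and Hspe1, so the same letters were counted for each. Hspd1 and Hspe1 passed as higher, and Hsph1 and Dnajb6 did not pass. Hspa8, Hsp90aa1 and Hsp90ab1 had no window and were not searched.

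Among HSP70 genes, Hspa8 moved most. It encodes the constitutive cytosolic HSP70 of most cells, and had 14816, 21200, 21459 and 18448 reads in IL-2 libraries 41 to 44, against 10564, 10520, 12317 and 11002 in control libraries 45 to 48. Every IL-2 library exceeded every control library, by 1.71-fold on average (log2 difference 0.72 ± 0.10 SE, limma adjusted p = 2.02e-04). On the deposited scale this was the largest difference among the 46 tested members, while Pfdn1 had a higher fold, 1.87. Hspa8 has many processed copies in the genome, as have Hsp90ab1, Hspd1 and Hspe1, so reads of these genes may have been shared with them.

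Hspa9, given above with the mitochondrial genes, was the other HSP70 gene that passed, and the remaining 5 tested did not. Hspa5, the HSP70 of the endoplasmic reticulum (ER), had 2721, 3619, 3577 and 2844 reads with IL-2, against 2881, 2859, 3563 and 2985 in controls (limma adjusted p = 0.768; the 95% interval of the difference ran from -0.15 to 0.23). The groups lay on top of each other, with libraries 42, 43 and 47 high. Hspa4, an HSP110-type exchange factor, averaged 1252 ± 106 reads with IL-2 against 1155 ± 76.5 in controls (limma adjusted p = 0.347), and its relative Hspa4l 372 ± 73.6 with IL-2 against 454 ± 99.0 in controls (limma adjusted p = 0.269). Hspa14, which works on the ribosome with Dnajc2, averaged 328 ± 44.7 with IL-2 against 318 ± 30.0 in controls (limma adjusted p = 0.852). Hsph1, the heat-inducible HSP110, had 412, 958, 922 and 507 reads with IL-2, against 370, 543, 714 and 631 in controls (limma adjusted p = 0.476; the 95% interval ran from -0.16 to 0.45). Its spread within each group was wide, with libraries 42 and 43 high and libraries 41 and 45 low. Hspa13 and Hspa2 averaged 117 and 29.6 reads with IL-2 and 147 and 25.2 in controls, and did not pass in the second fit.

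All 3 HSP90 genes were higher. Hsp90aa1, the inducible cytosolic form, had 3345, 4252, 3742 and 3905 reads with IL-2, against 2805, 2515, 2975 and 2534 in controls (1.41-fold, log2 difference 0.40 ± 0.07 SE, limma adjusted p = 0.00101). Hsp90ab1, the constitutive cytosolic form, had 13045, 17966, 15775 and 11944 reads with IL-2, against 9929, 9516, 11697 and 10280 in controls (1.42-fold, log2 difference 0.46 ± 0.11 SE, limma adjusted p = 0.00614). Neither of these overlapped between groups, though Hsp90ab1 in IL-2 library 44 stood only just above control library 47. Hsp90b1, the ER form, had 3965, 4820, 4472 and 4716 reads with IL-2, against 3786, 3367, 4001 and 3603 in controls (1.22-fold, limma adjusted p = 0.0158). Library 41 fell below control library 47, and the call was lost without control library 46 (adjusted p = 0.0525) and under quantile normalization (adjusted p = 0.0503).

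**Figure D3:**
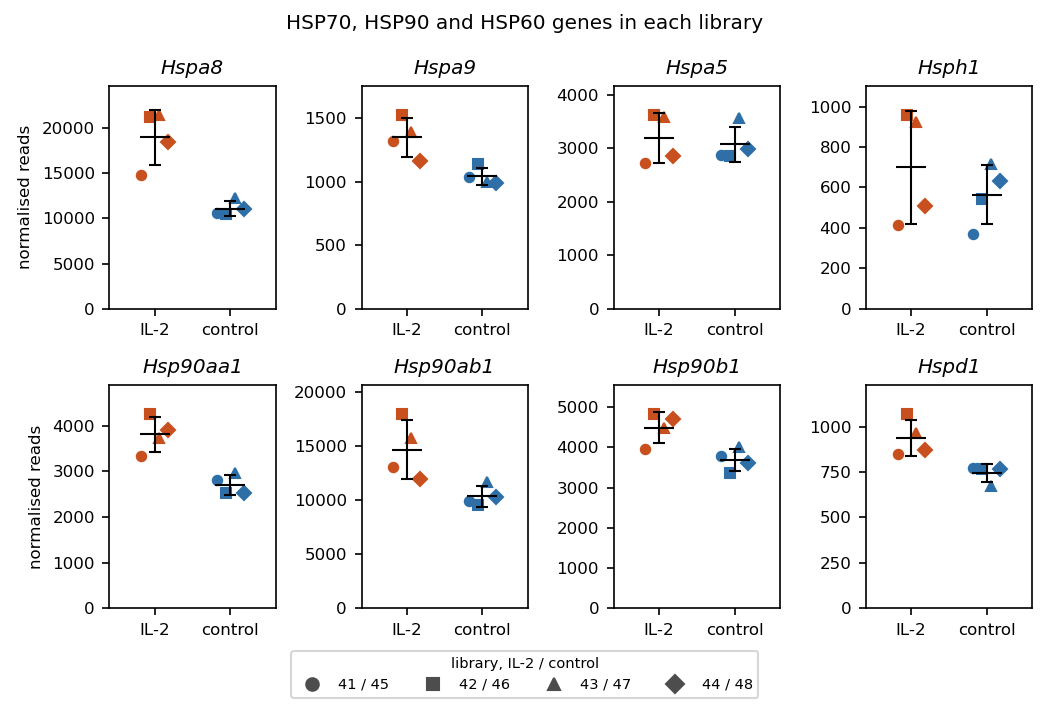
Normalised reads of HSP70, HSP90 and HSP60 genes in each library, with the group mean and SD (n = 4); marker shapes only tell libraries apart and pair none. Hspa8 runs from 14816 to 21459 with IL-2 and from 10520 to 12317 in controls, while Hspa5 and Hsph1 overlap.

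Of 25 HSP70 and HSP90 co-chaperones listed by name, 21 were tested, of which 5 were higher and 1 lower. That is 28.6% of them, near the 31.4% of all tested genes, so the count does not set the list apart. Nudc, a client-loading cofactor, had 630 ± 67.1 reads with IL-2 against 414 ± 33.2 in controls (limma adjusted p = 0.00168). Ppid, a cyclophilin that binds HSP90, had 275 ± 14.5 with IL-2 against 173 ± 19.6 in controls (limma adjusted p = 0.00504). Its control values (157 to 198) were all under the main filter's 206 reads, so Ppid entered that fit and its count only through the IL-2 libraries. Both groups of Ppid were above the filter of the second fit, where it also passed (limma adjusted p = 0.00602). Ahsa1, the activator of HSP90's ATPase, had 521 ± 85.5 with IL-2 against 395 ± 26.9 in controls (limma adjusted p = 0.0370). Cdc37l1, a relative of the kinase cochaperone Cdc37, was the one that was lower, with 945 ± 90.2 with IL-2 against 1233 ± 118 in controls (limma adjusted p = 0.0101). Stip1, the bridge between HSP70 and HSP90, had 853 ± 209 reads with IL-2 against 615 ± 124 in controls and did not pass (limma adjusted p = 0.0735). Hsf1, the master heat shock factor, was below the main filter, with 226 ± 48.8 reads with IL-2 against 186 ± 17.4 in controls, and did not pass in the second fit (limma adjusted p = 0.348).

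Between the ER chaperones Hsp90b1 and Hspa5 the call differed, with Hsp90b1 called higher and Hspa5 not. The ER stress response element, CCAAT and CCACG with 9 free bases between them, on either strand, was in the windows of 3 of the 78 members (Hsp90b1, Hspa5 and Dnajc3) and of 0.137% of all genes. The 3 stretches are shown because these genes share the element but not the call, with the element in capitals (RefSeq, GRCm38.p6: Hsp90b1 at chr10:86705525-86705669, minus strand; Hspa5 at chr2:34772020-34772049 and Dnajc3 at chr14:118937812-118937861, plus strand).
Hsp90b1: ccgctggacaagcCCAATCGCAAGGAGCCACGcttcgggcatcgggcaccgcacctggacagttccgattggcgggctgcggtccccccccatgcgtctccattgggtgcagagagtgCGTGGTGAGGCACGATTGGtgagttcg
Hspa5: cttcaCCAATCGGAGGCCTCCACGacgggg
Dnajc3: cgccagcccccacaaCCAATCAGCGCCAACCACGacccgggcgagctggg
Hsp90b1 holds 2 copies in this stretch and the others 1 each. The Hspa5 stretch lies in an annotated exon of Hspa5, and the other two overlap none. Dnajc3, an ER J-protein that restrains eIF2-alpha kinases, had 925, 1019, 982 and 963 reads with IL-2, against 1268, 1179, 1048 and 1086 in controls. Its groups did not overlap, with IL-2 lower by 1.18-fold, but it did not pass (limma adjusted p = 0.0556); it passed without control library 47 (adjusted p = 0.0448), under the stricter filter (adjusted p = 0.0385) and with median centring (adjusted p = 0.0401). Dnajb11, an ER J-protein that works with Hspa5, did not pass (580 ± 30.5 reads with IL-2 against 548 ± 91.2 in controls, limma adjusted p = 0.627). Dnajb9, another ER stress gene, had 71.8 to 103 reads with IL-2 and 79.0 to 130 in controls and did not pass in the second fit (limma adjusted p = 0.313).

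At the main filter, J-proteins had the lowest share of calls of the classes with tested members. Of 45 genes, 20 were tested, and 1 was higher, 1 lower and 18 did not pass, a share of 10% beside 31.4% of all tested genes. The 20 differences ran from -0.16 to 0.30, with 8 above and 12 below 0. The stricter filter left 5 J-protein genes, of which 1 was higher and 2 lower, where 737 of 1519 genes passed. It left 4 HSP70 genes, of which 2 were higher and 0 lower, so the ranking depended on the filter. Dnajc2, which sits on the ribosome and recruits HSP70 to new chains, was the gene that rose. It had 1130, 1044, 1192 and 1159 reads with IL-2, against 795, 777, 844 and 796 in controls, tight within each group and 1.41-fold apart (log2 difference 0.30 ± 0.05 SE, limma adjusted p = 6.54e-04). It passed whichever library was left out.

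Dnajc13, an endosomal J-protein, was the gene called lower. It had 1285, 1134, 1219 and 1174 reads with IL-2, against 1437, 1301, 1532 and 1428 in controls (1.18-fold lower, limma adjusted p = 0.0352). The groups did not overlap, but the call was close to the threshold. It was lost without IL-2 library 42, 43 or 44 or control library 45, 47 or 48 (adjusted p = 0.0633 to 0.100), and when no filter was set on low values (0.0523 adjusted).

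The J-proteins that usually serve Hspa8 in the cytosol did not pass. Dnaja1 had 519, 778, 824 and 637 reads with IL-2, against 598, 651, 707 and 633 in controls (limma adjusted p = 0.706; the 95% interval of the difference ran from -0.12 to 0.20). Dnaja2 averaged 1134 ± 88.8 with IL-2 against 1159 ± 54.9 in controls (limma adjusted p = 0.811). Dnajb1, the main heat-inducible J-protein, had 258, 323, 498 and 319 reads with IL-2, against 334, 308, 330 and 346 in controls (limma adjusted p = 0.839). Only library 43 stood above the controls for Dnajb1. Dnajb6, which holds back aggregates, had 673, 713, 828 and 613 reads with IL-2, against 796, 869, 838 and 847 in controls (limma adjusted p = 0.0808), and passed as lower without library 43 (adjusted p = 0.0280). Dnajc7, with sites for both HSP70 and HSP90, averaged 770 ± 107 with IL-2 against 739 ± 117 in controls (limma adjusted p = 0.768). In the second fit, which took in 38 J-protein genes, Dnajc2 and Dnajc13 again gave the 2 calls, and 5 J-protein genes (Dnajb7, Dnajb8, Dnajc5b, Dnajc5g and Dnajc22) were at 0 in every library. Of genes with a J domain under another name, Sec63 (558 ± 109 reads with IL-2 against 536 ± 46.0 in controls) and Gak (797 ± 188 with IL-2 against 835 ± 177 in controls) did not pass with limma, and Hscb, the iron-sulfur J-protein, rose in the second fit (83.2 ± 3.70 reads with IL-2 against 47.5 ± 3.65 in controls, limma adjusted p = 0.0340).

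**Figure D4:**
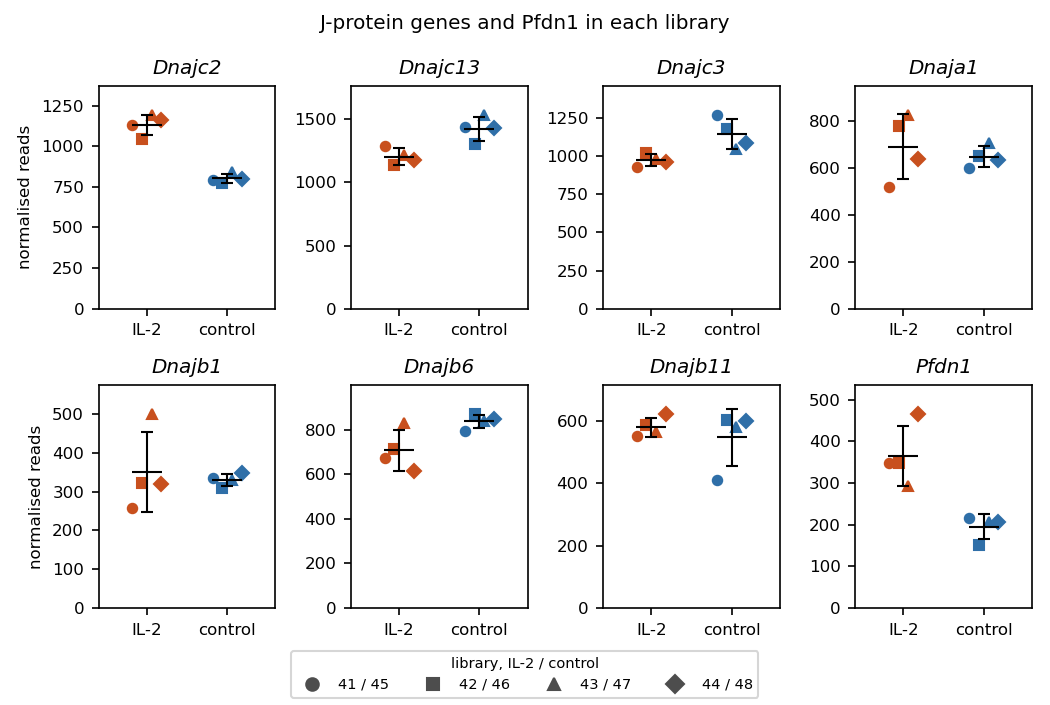
Normalised reads of 7 J-protein genes and of Pfdn1 in each library, with the group mean and SD (n = 4); marker shapes only tell libraries apart and pair none. Dnajc2 (1044 to 1192 with IL-2, 777 to 844 in controls) is higher, and Dnaja1, Dnajb1, Dnajb6 and Dnajb11 overlap.

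BAG proteins release nucleotide from HSP70. Bag1, also an anti-apoptotic partner of BCL-2, had 694, 880, 814 and 910 reads with IL-2, against 588, 606, 697 and 632 in controls (1.31-fold, limma adjusted p = 0.0167). Library 41 lay just below control library 47. Bag6, which escorts membrane proteins, averaged 671 ± 91.5 with IL-2 against 638 ± 27.7 in controls (limma adjusted p = 0.684), and Bag4 and Bag5 did not pass. Bag3, the heat-inducible member that acts in selective autophagy, was below the main filter, with 59.0, 130, 107 and 84.4 reads with IL-2, against 186, 153, 142 and 148 in controls. Its groups did not overlap, and it passed as lower in the second fit (limma adjusted p = 0.0482). That call held only when IL-2 library 42 was the one left out, with adjusted p-values of 0.0575 to 0.124 without any other library. Bag2 averaged 5.88 reads with IL-2 and 4.23 in controls.

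The strictly inducible genes were near 0. Hspa1a had 28.6, 0, 0 and 0 reads with IL-2, against 10.9, 0, 0 and 7.81 in controls, and Hspa1b had 1.90, 22.1, 23.2 and 5.08 with IL-2, against 16.3, 8.26, 6.27 and 6.68 in controls. The 2 genes are nearly identical, so reads could be split between them in either way. Hspb1, the small heat shock protein HSP27's gene, had 39.4, 19.4, 0 and 18.2 reads with IL-2, against 22.6, 0, 21.0 and 5.49 in controls. Hspb1 did not pass in the second fit (limma adjusted p = 0.730), and Hspa1a and Hspa1b had too few reads for either fit. The other small heat shock protein genes averaged at most 1.25 reads with IL-2 and 1.53 in controls. Promoter stretches of Hspa1a and Hspb1 are shown because they carry heat shock element letters while their transcripts were near 0, with 2-unit elements (GAANNTTC) in capitals (RefSeq, GRCm38.p6: Hspa1a at chr17:34972217-34972306, minus strand; Hspb1 at chr5:135887779-135887868, plus strand).
Hspa1a: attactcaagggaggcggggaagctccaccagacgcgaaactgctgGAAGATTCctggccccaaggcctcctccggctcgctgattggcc
Hspb1: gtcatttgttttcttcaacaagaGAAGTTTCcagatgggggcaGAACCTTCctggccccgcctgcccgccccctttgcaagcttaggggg
GAANNTTC, which is also part of the 3-unit element, was in the windows of 17 of the 78 members and of 9.04% of all genes.

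Hspg2, which the name rule takes in, encodes the matrix proteoglycan perlecan and is no chaperone; it averaged 0 reads with IL-2 and 1.54 in controls. Hspbp1, an exchange factor of HSP70, averaged 90.2 ± 33.3 reads with IL-2 against 49.3 ± 9.18 in controls without overlap and did not pass in the second fit (limma adjusted p = 0.0821). Hspbap1 averaged 128 reads with IL-2 and 121 in controls.

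Several heat shock genes varied between libraries of a group together with immediate early genes, which rise quickly when cells are handled or stimulated. Summed over 13 such genes, normalised reads were 9765, 20109, 16342 and 10961 in IL-2 libraries 41 to 44, against 8531, 9715, 15385 and 13176 in control libraries 45 to 48. Libraries 42 and 43 were thus the highest of the IL-2 group and library 47 of the controls, the same libraries in which Hsph1, Hspa5, Dnaja1, Hspa8 and Hsp90ab1 stood highest within each group. Other members did not follow in full. Hspd1, Hspa1b and Bag3 were lowest of the controls in library 47, with 670, 6.27 and 142 reads. Dnajb1 was highest of the controls in library 48 (346 reads). Hsp90aa1 had fewer reads in IL-2 library 43 (3742) than in IL-2 library 44 (3905). The sums overlapped between the groups. Of the 11 tested genes of that list, Fos and Ier2 were higher with IL-2 and Egr1 lower. That is 27.3% of them, near the 31.4% of all tested genes, so the count does not set the list apart. Fosb, below the main filter, was higher in the second fit, with 152, 628, 384 and 290 reads with IL-2, against 25.1, 27.1, 81.8 and 87.4 in controls, without overlap (6.57-fold, limma adjusted p = 0.00180). Without IL-2 libraries 42 and 43, a choice made after seeing the data, 8 members were still called higher: Cct2, Cct3, Cct5, Cct6a, Hspa8, Hsp90aa1, Dnajc2 and Pfdn1. Hspa8 then differed by 0.55 (limma adjusted p = 0.00294), against 0.72 with all libraries. Hsp90ab1 differed by 0.26 and no longer passed (adjusted p = 0.0590), and Hsph1 by -0.13 (adjusted p = 0.440). With only 2 IL-2 libraries left, the calls over all 5261 tested genes also fell, to 1116, of which 609 were higher and 507 lower. Whether handling contributed to the differences was not tested.

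**Figure D5:**
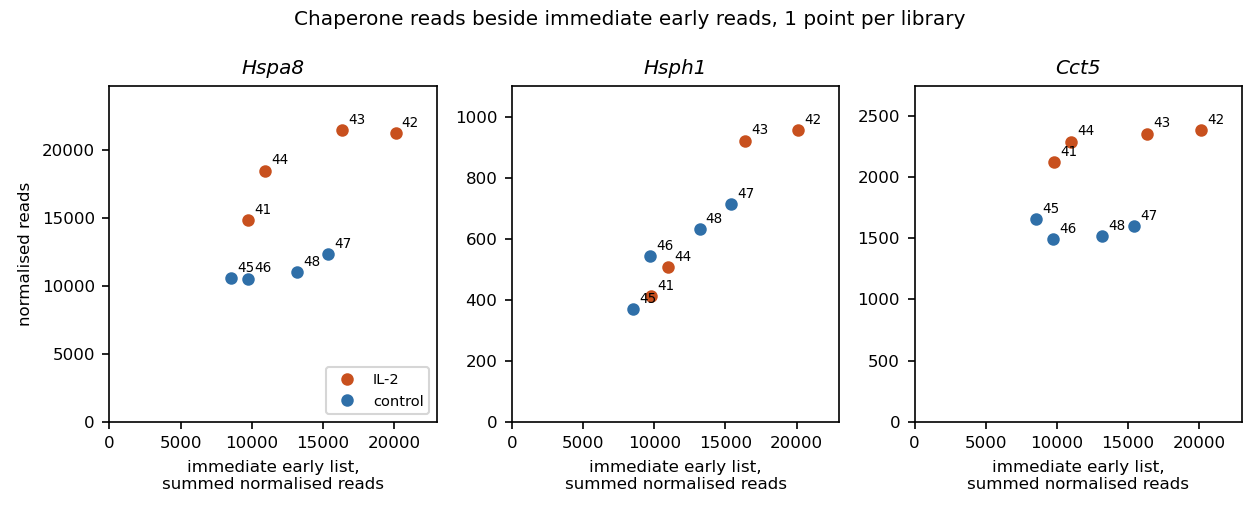
Normalised reads of Hspa8, Hsph1 and Cct5 (vertical axes) against summed reads of 13 immediate early genes (horizontal axes), 1 point per library, labelled by number. Hsph1 is highest in libraries 42 and 43, which hold 20109 and 16342 immediate early reads, while Cct5 stays between 2127 and 2389 in all IL-2 libraries and between 1491 and 1659 in all controls.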

How the data were processed

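Libraries were made from total RNA of sorted spleen Tregs with a stranded pico-input kit, per the labels' protocols. The authors deposited 1 table of variance-stabilised log2 values for 8 libraries, whose columns were matched to samples by library number. The submitters' processing notes list Salmon, DESeq2 and GRCm39 for what the authors did; the sources used here give no order, settings, annotation or filters. The parametric variance-stabilising formula was inverted to give normalised reads, with the lowest value (8.69) taken as 0 reads. As a check, the 5 commonest values above it per library lay within 0.001 of a multiple of 1 read in 40 of 40 cases. At 1 above the lowest value a gene has 206 normalised reads.

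Genes at least 1 above the lowest value in at least 4 libraries (5261) were fitted with limma 3.58.1 (R 4.3.3; trend, no covariates), IL-2 minus control, with Benjamini-Hochberg adjustment and a threshold of 0.05. The second fit used genes with at least 10 normalised reads in at least 4 libraries. Folds are ratios of group means. Alternatives were no filter, a stricter filter (2 above), quantile normalization, median centring, limma without trend, robust or with array weights, pseudocounts of 5 and 1 on log2 reads, and leaving out each library; leaving out libraries 42 and 43 together and leave-outs in the second fit were added after seeing the data. Members and lists were chosen with earlier results of these data known. Named were 46 members: a list taken whatever the values, plus up to 8 per class and direction past the threshold by adjusted p; among listed partners, up to 3 per direction; others that are named, and all promoter stretches and motifs, were chosen after their values were seen. Promoter sequences come from RefSeq (GRCm38.p6), matched by symbol for 78 of 96 members, with windows of 250 bases before to 50 after the start; no coordinates of the files were used. Salmon divides shared reads by estimation, so near-identical genes and genes with processed copies are uncertain. Tables and plots used pandas 2.3.3, matplotlib 3.10.9, numpy 2.4.6 and Python 3.11.15. Values of 1 member and of 1 listed partner gene are not reported here.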

Additional observations from a re-analysis of the deposited data

Results flagged for a closer look

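Of 68 groups of 4 values examined, 3 held a library that stood far from the other 3; chance alone flags about 1 group in 20. Dnajb11 had 412 normalised reads in control library 45, against 579 to 602 in the other controls. Hspd1 had 670 in control library 47, against 768 to 770 in the others, and without that library its call was lost. Pfdn1 had 151 in control library 46, against 206 to 216 in the others, and it passed without that library too.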

How the results depend on the processing

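No paired analysis was possible because the groups share no replicate numbers. Counts of calls were repeated for all members, all genes and the chaperonin, HSP70, HSP90 and J-protein classes, and those that moved by more than 1.5 times are given here. For the other classes, only log2 reads plus 5 was compared: prefoldin genes called higher then numbered 2 against 1 on the deposited values, and BAG genes called lower 1 against 0. Members called lower numbered 1 as reported, 0 without a filter, and 2 under the stricter filter, with median centring and on log2 reads plus 5 or plus 1; J-protein genes called lower numbered 0 without a filter and 2 under the stricter filter and with median centring. The stricter filter left 17 members and 1519 genes, of which 11 members were higher and 737 genes passed, 380 of these genes as higher. Quantile normalization turned Hspa5 to -0.0038. Leaving out 1 library gave 14 to 16 members higher, 0 to 2 lower, 5 to 6 chaperonin genes, 2 to 3 HSP90 genes and 2 HSP70 genes higher, 1 J-protein gene higher and 0 to 2 lower, and 1378 to 1535 genes past the threshold. Some differences that did not pass changed sign with the library left out: Dnaja1 ran from -0.0084 to 0.11, Dnaja2 from -0.043 to 0.011, Dnaja3 from -0.0029 to 0.102, Dnajb1 from -0.055 to 0.078, Dnajb11 from -0.017 to 0.071, Dnajc7 from -0.018 to 0.078, Hspa14 from -0.0101 to 0.055 and Hspa5 from -0.012 to 0.0997, and on log2 reads Hspa2 from -0.225 to 0.362 and Hspb1 from -0.057 to 1.07. Without IL-2 libraries 42 and 43 together, 8 members, 4 chaperonin genes, 1 HSP70 gene and 1 HSP90 gene were higher, and Dnaja1 (-0.086), Dnajb1 (-0.077), Hspa14 (-0.0035), Hspa5 (-0.11) and Hsph1 (-0.134) turned negative. In that fit 609 of all 5261 tested genes were higher. That fit has fewer samples, and the cause of the other changes was not tested. The main filter stood at 206 normalised reads in at least 4 libraries. Of the members below it, 28 entered the second fit, and the 22 with too few reads for either fit are limited by depth. Near-identical genes are limited by how shared reads were divided.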
